A study of Mus musculus with 9 samples.

Results

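Oxidative phosphorylation is carried out in the inner membrane of mitochondria by 5 protein complexes, and most of their subunits are encoded by genes in the nucleus. This account covers those nuclear genes in mouse primary myoblasts treated with GREM1 or BMP4. They were chosen by gene symbol (the Nduf, Sdh, Uqcr, Cox4 to Cox8 and Atp5 families), with 1 probe set per gene. The symbol rule uses no expression value, but it was set with earlier results of these data known. The rule found 76 of the 24011 named genes on the array: 35 of complex I, 4 of complex II, 7 of complex III, 17 of complex IV and 13 of complex V. Complexes were assigned by symbol alone, so Ndufa4 and Ndufa4l2 are counted with complex I by name, whatever complex their proteins join. Each of the 76 had 1 probe set, and 2 pseudogene names (Ndufs5-ps and Atp5c1-ps) were left out.

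Myoblasts derived from satellite cells, the stem cells of skeletal muscle, had been grown in 20% FBS and then kept in 2% horse serum. Such low serum lets myoblasts leave the cell cycle and begin to form muscle fibres. RNA was taken after 24 h. Cells received recombinant GREM1 at 500 ng/ml, recombinant BMP4 at 100 ng/ml, or a mock treatment (control), with 3 arrays per group, replicates 1, 2 and 3. BMP4 is a secreted ligand of the bone morphogenetic protein receptors. GREM1 is secreted too and antagonises such ligands by binding them.

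Complex I (NADH dehydrogenase) and complex II (succinate dehydrogenase, also an enzyme of the tricarboxylic acid cycle) pass electrons to ubiquinone. Complex III passes them on to cytochrome c, complex IV (cytochrome c oxidase) hands them to oxygen, and complex V (ATP synthase) uses the proton gradient that the pumping complexes build. Several complex IV subunits exist as a widely expressed isoform and a tissue-restricted one, and Cox6a2, Cox7a1 and Cox8b are the isoforms of heart and skeletal muscle. Muscle fibres hold more of this machinery than dividing myoblasts do.

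Values are log2 expression levels, and a difference is the first-named group minus the second. Tests covered the genes that exceeded the array's 30th percentile (3.89 to 4.02) on 3 or more arrays, which were 74 of the 76 subunit genes and 17142 genes in all. Cox7b2 (2.38 to 2.56 over the 9 arrays) and Cox8c (3.45 to 3.59) lay below this limit, and Atp5h and Ndufa4l2 met it narrowly. All 9 myoblast markers examined met the filter, against 1 of 6 fibroblast, 2 of 5 endothelial, 2 of 5 leukocyte, 3 of 4 pericyte, 1 of 1 Schwann cell and 1 of 4 adipocyte markers. The summed level of the myoblast markers was 13.18 to 13.24 with GREM1, 12.88 to 13.07 with BMP4 and 12.52 to 12.98 in control. Itga7 lay at 9.52 to 9.60 with GREM1 against 8.31 to 8.79 in control, while Myf5 overlapped (6.58 to 7.51 with GREM1, 7.40 to 8.34 in control). The summed level of the pericyte markers was 7.62 to 7.85 with GREM1, 7.50 to 7.65 with BMP4 and 7.11 to 7.40 in control. Of the pericyte markers Abcc9 lay at 6.75 to 7.21 with GREM1 against 5.74 to 6.37 in control, and Kcnj8 was at most 3.85 on any array. The GREM1 and control arrays overlapped in Rgs5 (4.43 to 4.99 with GREM1, 4.75 to 5.04 in control) and in Cspg4 (5.27 to 5.48 with GREM1, 5.26 to 5.58 in control). With BMP4, Cspg4 lay at 5.91 to 6.01, above all control arrays, while Rgs5 (4.95 to 5.97) and Abcc9 (5.72 to 6.35) overlapped control. The part of these markers in the differences below was not tested. Control replicate 1 was the lowest of the 9 arrays for 19 of the 74 genes (25.7%, against 17.4% of all genes tested). It was the highest for 14 (18.9%, against 18.4%). Among the 35 genes of complex I it was the lowest for 7 and the highest for 9. In bulk RNA, fewer cells of a type and less RNA per cell cannot be told apart. The labels do not say whether replicates are separate cultures, so p-values measure only the spread between these samples.

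None of the 74 tested genes passed the test (limma, adjusted p under 0.05) in any of the 3 comparisons. With GREM1 against control 0 of 74 passed, where 4.28% of all genes did, and 5 had an unadjusted p under 0.05, where 20.0% of all genes did. With BMP4 against control 0 of 74 passed, where 0.117% of all genes did, and 1 had an unadjusted p under 0.05, where 8.02% of all genes did. With BMP4 against GREM1 0 of 74 passed, where 6.45% of all genes did, and 2 had an unadjusted p under 0.05, where 19.4% of all genes did. The members' differences were also small. The median was -0.023 with GREM1 and 0.030 with BMP4 against control, beside -0.0057 and -0.0060 over all genes tested. The median size without sign was 0.10 with GREM1 and 0.072 with BMP4, beside 0.13 and 0.097 over all genes.

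The 95% intervals give how large a difference is left possible by the fit without replicate numbers, which counts the variation between the numbers as error. With GREM1 against control, 68 of the 74 intervals lay inside a 2-fold difference in either direction (94.3% of all genes) and 52 inside 1.5-fold (76.3%). With BMP4 against control these counts were 71 (97.7%) and 55 (83.9%). The 6 genes whose GREM1 interval reached past 2-fold were Sdhc, Cox7a2l, Cox6b2, Cox8b, Cox6a2 and Atp5h, and with BMP4 they were Ndufb11, Cox7a2l and Atp5h. With the replicate number as a block, the SE of the GREM1 difference was 0.11 for Cox6b2 (0.28 without the block), 0.13 for Cox6a2 (0.36) and 0.19 for Cox8b (0.39). It was 0.17 for Cox7a2l (0.29), 0.19 for Sdhc (0.25) and 0.47 for Atp5h (0.47). Intervals with the block were not counted. Both sets of differences use the same 3 control arrays.

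**Figure D1:**
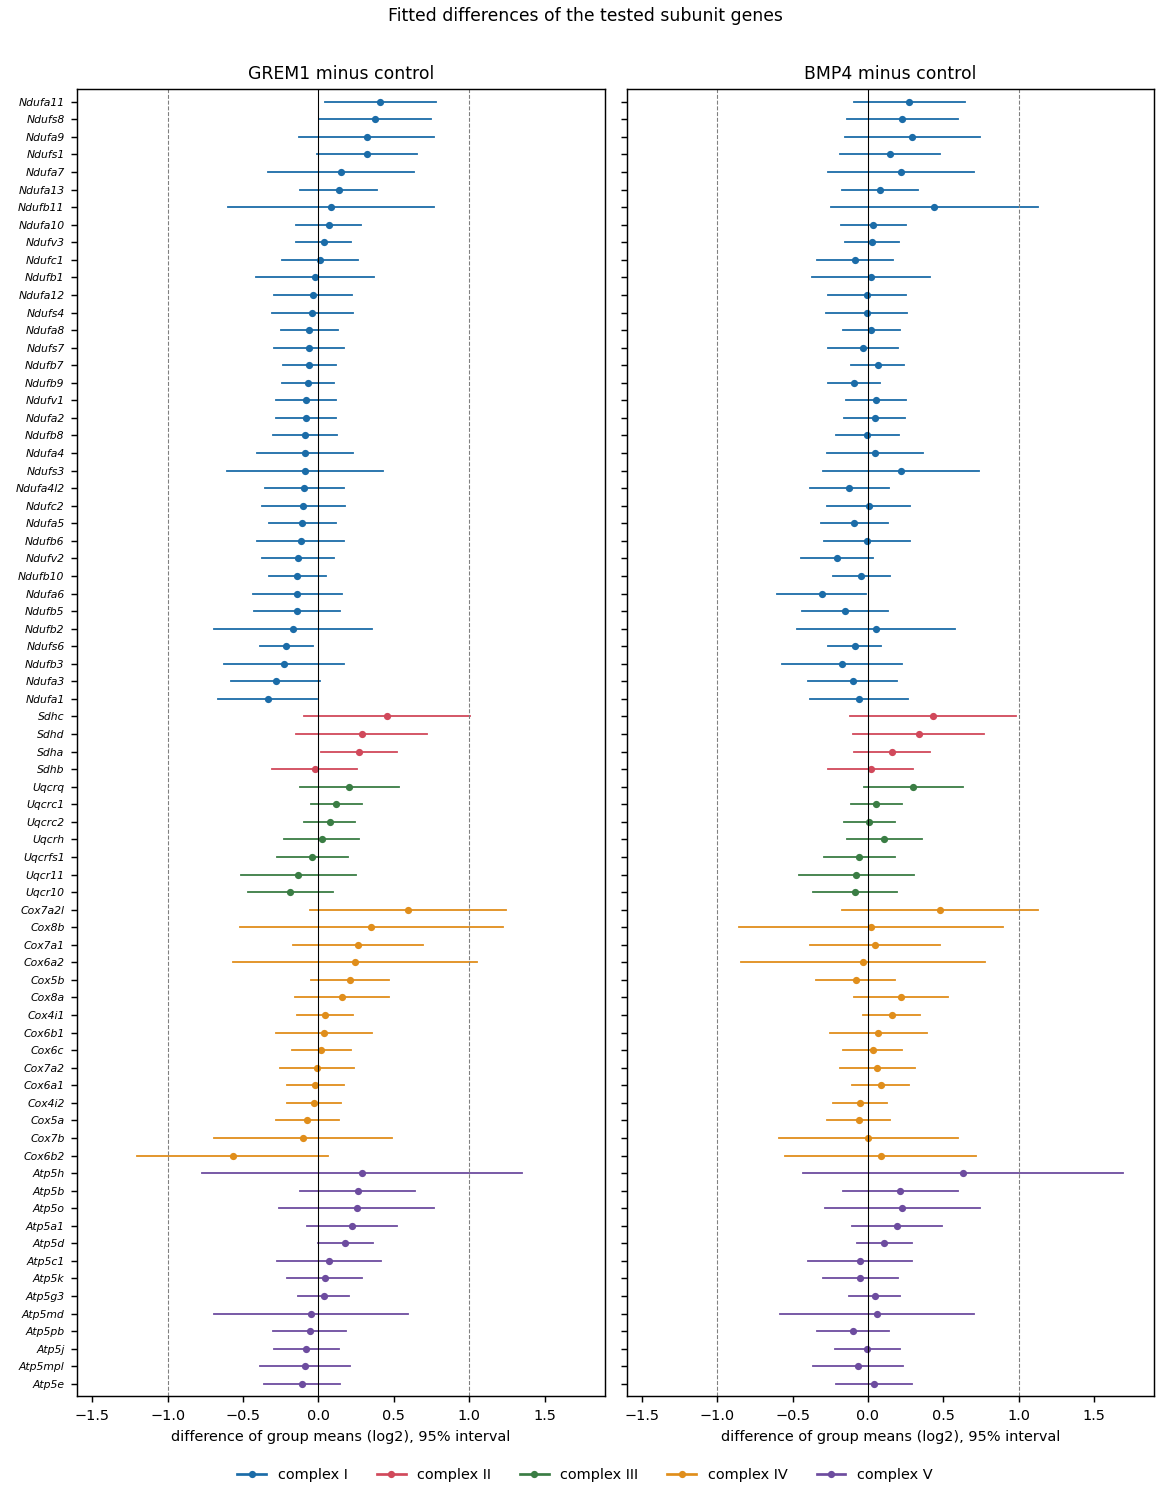
Fitted log2 differences of the 74 tested subunit genes with 95% intervals, GREM1 minus control on the left and BMP4 minus control on the right, coloured by complex, with dashed lines at a 2-fold difference. Intervals are from the fit without replicate numbers. In 68 genes with GREM1 and 71 with BMP4 the whole interval lies between the dashed lines, and the widest is that of Atp5h.

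Replicate numbers of GREM1 and control arrays, and of BMP4 and control arrays, paired across genes. When they entered the fit as a block, 3 of the 74 genes passed with GREM1 against control (11.6% of all genes): Ndufa11 and Ndufs8 were higher and Cox6b2 was lower. With BMP4 against control 0 passed with the block (0.379% of all genes).

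In complex I, 25 of 35 genes, Ndufa4 and Ndufa4l2 among them, had a GREM1 difference below 0, as did 51.3% of all genes. The median was -0.082, or -0.018 without GREM1 replicate 1 and -0.039 without control replicate 1. Without replicate 1 of every group it was -0.0039. With BMP4 the median was 0.0052 and 17 of 35 lay below 0. Ndufa11, an accessory subunit of the membrane arm, had 6.99, 7.17 and 7.21 with GREM1, 6.66, 7.25 and 7.04 with BMP4, and 6.44, 6.84 and 6.86 in control. All GREM1 arrays lay above all control arrays, and BMP4 arrays lay on both sides. The GREM1 difference was 0.41 ± 0.16 (SE, 1.33-fold, adjusted p = 0.200, and 0.0275 with the replicate block). Ndufs8, an iron-sulfur core subunit, had 8.96, 9.09 and 9.32 with GREM1, 8.82, 8.995 and 9.11 with BMP4, and 8.38, 8.87 and 8.995 in control. The GREM1 and control arrays overlapped, control replicate 1 being the lowest. The GREM1 difference was 0.38 ± 0.16 (adjusted p = 0.242, and 0.0360 with the block). Without control replicate 1 it was 0.19, and that of Ndufa11 was 0.27.

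Ndufs6, an accessory subunit that binds zinc, had 11.24, 11.33 and 11.40 with GREM1, 11.37, 11.52 and 11.44 with BMP4, and 11.51, 11.52 and 11.58 in control. Every GREM1 array lay below every control array, and the difference was -0.21 ± 0.079 (adjusted p = 0.171). Ndufa1, a small membrane-arm subunit, had 9.61, 9.76 and 10.06 with GREM1 against 10.26, 10.01 and 10.17 in control, with overlapping groups and a difference of -0.34 ± 0.15 (adjusted p = 0.238). With BMP4 the smallest p was that of Ndufa6, an accessory subunit of the matrix arm. Its levels were 8.87, 9.11 and 8.86 with BMP4 against 9.56, 9.15 and 9.06 in control. One BMP4 array lay inside the control range, and the difference was -0.31 ± 0.13 (adjusted p = 0.605). Ndufv2, another core subunit, differed by -0.21 ± 0.11 with BMP4 (adjusted p = 0.660). Without control replicate 1 the BMP4 difference was -0.16 for Ndufa6 and -0.11 for Ndufv2.

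The promoters of Ndufa11 and Ndufs8, the complex I genes that passed with the block, are shown as the 250 bases before the RefSeq start (GRCm38.p6). Capitals mark a match to the binding motif of NRF1, a transcription factor of many nuclear genes for mitochondrial proteins. The Ndufa11 window is chr17:56717512-56717761 on the plus strand and holds 1 match. The Ndufs8 window is chr19:3912775-3913024 on the minus strand and holds no match to any motif searched in these bases.
Ndufa11: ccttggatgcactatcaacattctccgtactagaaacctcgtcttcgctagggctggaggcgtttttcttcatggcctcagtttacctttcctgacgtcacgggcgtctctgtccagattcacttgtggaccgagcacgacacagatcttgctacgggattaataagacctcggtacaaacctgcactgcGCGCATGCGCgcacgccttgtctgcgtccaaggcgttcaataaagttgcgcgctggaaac
Ndufs8: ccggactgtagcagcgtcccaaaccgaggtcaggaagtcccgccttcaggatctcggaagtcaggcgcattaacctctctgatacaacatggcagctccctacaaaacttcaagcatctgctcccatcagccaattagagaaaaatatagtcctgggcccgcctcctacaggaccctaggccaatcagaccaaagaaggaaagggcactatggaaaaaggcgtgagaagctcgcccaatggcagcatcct

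The 4 subunits of complex II had the largest median of any complex against control, 0.28 with GREM1 and 0.25 with BMP4, and that median rested on control replicate 1. Sdhc, a membrane anchor subunit, had 9.38, 9.50 and 9.65 with GREM1, 9.40, 9.58 and 9.48 with BMP4, and 8.38, 9.23 and 9.56 in control. Sdhd, the other anchor, had 7.60, 7.73 and 7.83 with GREM1, 7.62, 7.82 and 7.88 with BMP4, and 6.91, 7.68 and 7.71 in control. In both genes control replicate 1 was the lowest of all arrays by far and the groups overlapped. Without that array the complex II median was 0.071 with GREM1 and 0.059 with BMP4. Sdha, the flavoprotein that oxidises succinate, had 10.05, 10.10 and 10.23 with GREM1 against 9.62, 9.94 and 10.001 in control. These groups did not overlap, and the difference was 0.27 ± 0.11 (adjusted p = 0.219), or 0.15 without control replicate 1. Sdhb, the iron-sulfur subunit, differed by -0.024 ± 0.13 with GREM1 and 0.019 ± 0.13 with BMP4.

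Complex III had medians of 0.021 with GREM1 and 0.0081 with BMP4. Uqcrc1, a core protein, had 9.56, 9.59 and 9.50 with GREM1 against 9.45, 9.49 and 9.35 in control, groups that did not overlap, with a difference of 0.12 ± 0.075 (adjusted p = 0.416). Uqcrq, a small subunit, differed by 0.21 ± 0.15 with GREM1 (adjusted p = 0.478, and a difference of 0.11 without control replicate 1) and by 0.30 ± 0.15 with BMP4 (adjusted p = 0.650). Uqcr10, another small subunit, differed by -0.19 ± 0.12 with GREM1 (adjusted p = 0.452). Uqcrfs1, the Rieske iron-sulfur protein, differed by -0.040 ± 0.10 with GREM1 and -0.058 ± 0.10 with BMP4.

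Complex IV held both the lowest and the highest GREM1 difference. Cox6b2, an isoform known chiefly from testis, had 7.20, 7.47 and 8.22 with GREM1, 8.04, 8.10 and 8.69 with BMP4, and 8.11, 7.89 and 8.59 in control. Within each replicate number the GREM1 array was the lowest of the 3, while across numbers the groups overlapped, and replicate 3 was the highest array of every group. The GREM1 difference was -0.57 ± 0.28 (adjusted p = 0.301, and 0.0152 with the replicate block), which is 0.674 of the control level. Its widely expressed partner Cox6b1 differed by 0.038 ± 0.14 with GREM1. Cox7a2l, a factor of respiratory supercomplexes, had 6.13, 6.18 and 6.42 with GREM1, 5.77, 6.26 and 6.35 with BMP4, and 4.90, 5.88 and 6.16 in control. Its GREM1 difference of 0.59 ± 0.29 (adjusted p = 0.294) was 0.22 without control replicate 1, and its BMP4 difference of 0.48 ± 0.29 (adjusted p = 0.713) was 0.10 without it.

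The muscle isoforms were well above the filter and varied widely within each group. Cox6a2 had 10.22, 10.46 and 9.53 with GREM1, 9.95, 10.22 and 9.20 with BMP4, and 10.36, 9.97 and 9.15 in control. Cox8b had 9.70, 9.97 and 9.28 with GREM1, 9.49, 9.83 and 8.64 with BMP4, and 9.97, 9.43 and 8.501 in control. Cox7a1 had 6.83, 6.70 and 6.60 with GREM1, 6.46, 6.79 and 6.23 with BMP4, and 6.80, 6.49 and 6.06 in control. In all 3 genes replicate 3 was the lowest array of every group and the groups overlapped. The GREM1 differences were 0.24 ± 0.36 for Cox6a2, 0.35 ± 0.39 for Cox8b and 0.26 ± 0.19 for Cox7a1, and the BMP4 differences were -0.034, 0.021 and 0.046. With the replicate block the SE was 0.13, 0.19 and 0.14 in the same order. No GREM1 difference passed with it (adjusted p = 0.275, 0.288 and 0.265).

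Whether a tissue-restricted isoform moved apart from its widely expressed partner was tested on the per-array difference between them, for 5 pairs in each of 2 comparisons with control. No pair passed an exact two-sided permutation test, which cannot go below p = 0.10 with 3 arrays against 3. With GREM1 the difference of Cox6a2 minus Cox6a1 was 0.27 above control (exact p = 0.60), that of Cox7a1 minus Cox7a2 0.27 (exact p = 0.50) and that of Cox8b minus Cox8a 0.19 (exact p = 0.80). Within replicate numbers 1, 2 and 3, Cox7a1 minus Cox7a2 was higher with GREM1 than in control by 0.25, 0.12 and 0.44, and each of the other pairs had at least 1 GREM1 minus control difference on either side of 0. A paired exact test over 3 numbers cannot go below p = 0.25. The smallest p was for Cox4i2, an isoform known from lung and hypoxia, minus Cox4i1 with BMP4, at -0.21 (exact p = 0.10, adjusted p = 0.50 over the 5 pairs). Cox4i1 had 11.03, 11.16 and 11.13 with BMP4 against 10.89, 10.97 and 10.98 in control, and Cox4i2 had 5.25, 5.25 and 5.29 with BMP4 against 5.31, 5.31 and 5.33 in control. These were the only 2 of the 74 genes whose BMP4 and control arrays did not overlap (11.2% of all genes). Ndufa4l2, a hypoxia-induced relative of Ndufa4, was near the filter limit and its pair differed by -0.0043 with GREM1 (exact p = 1).

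**Figure D2:**
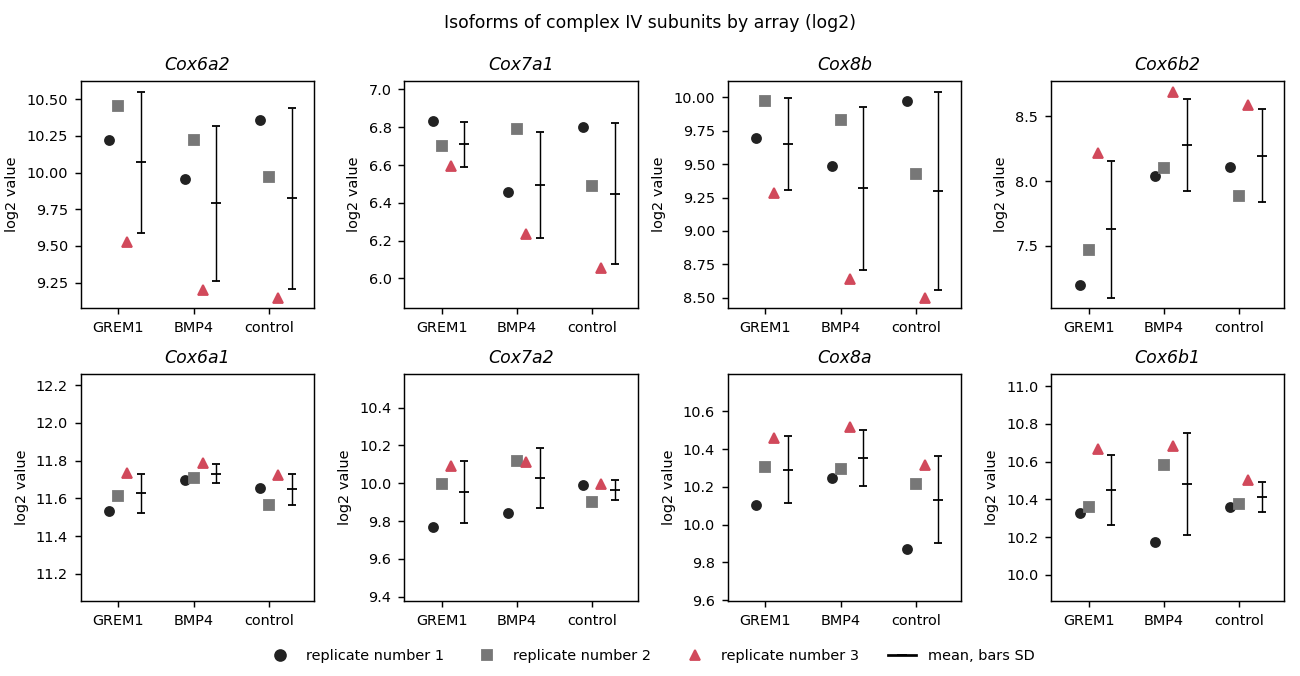
Log2 level in each array of 4 tissue-restricted complex IV isoforms (upper row) above their widely expressed partners (lower row), in GREM1, BMP4 and control arrays, with the marker giving the replicate number and bars the mean and SD of 3 arrays. Each panel has its own level axis. Replicate 3 is the lowest array of every group in Cox6a2, Cox7a1 and Cox8b and the highest in Cox6b2.

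The promoters of Cox6b2 and Cox8b are shown because replicate 3 was the highest array of every group in Cox6b2 and the lowest in Cox8b. These 2 genes were chosen after their values were seen. Each window is the 250 bases before the RefSeq start (GRCm38.p6) on the minus strand, chr7:4753095-4753344 for Cox6b2 and chr7:140900447-140900696 for Cox8b. Capitals mark a GC box (GGGCGG) in Cox6b2 and the sequence CAGCTG, one of the E-boxes that myogenic factors bind, in Cox8b. Replicate 3 was also the lowest array of every group in Cox7a1, Ndufa6, Uqcrc1 and Cox6a2. The windows of Cox7a1, Ndufa6 and Uqcrc1 held no CAGCTG, and Cox6a2 had no window. With the 50 bases after the start included, CAGCTG was also in the windows of Atp5b, Ndufa8, Ndufb10 and Ndufv2. In none of these was replicate 3 the lowest array of every group, and in Atp5b it was the highest of every group. Whether either sequence has a part in the replicate pattern was not tested.
Cox6b2: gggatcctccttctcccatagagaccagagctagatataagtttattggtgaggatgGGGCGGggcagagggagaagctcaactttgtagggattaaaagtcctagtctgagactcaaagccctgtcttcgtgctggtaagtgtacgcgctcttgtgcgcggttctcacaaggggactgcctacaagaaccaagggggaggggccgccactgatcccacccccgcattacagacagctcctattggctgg
Cox8b: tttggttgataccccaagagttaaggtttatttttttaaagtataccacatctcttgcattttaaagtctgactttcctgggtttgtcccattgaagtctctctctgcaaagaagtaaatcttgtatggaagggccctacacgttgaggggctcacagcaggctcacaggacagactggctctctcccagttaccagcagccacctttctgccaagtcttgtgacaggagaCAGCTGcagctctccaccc

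Complex V had medians of 0.042 with GREM1 and 0.044 with BMP4. Atp5d, the delta subunit, had 10.67, 10.79 and 10.66 with GREM1 against 10.44, 10.64 and 10.49 in control, groups that did not overlap, with a difference of 0.18 ± 0.081 (adjusted p = 0.260). The catalytic beta subunit Atp5b had 11.55, 11.58 and 11.70 with GREM1, 11.45, 11.57 and 11.68 with BMP4, and 10.90, 11.54 and 11.61 in control. Control replicate 1 was again the lowest array, and the GREM1 difference of 0.26 ± 0.17 (adjusted p = 0.438) was 0.034 without it. Atp5h, a subunit of the peripheral stalk, had 3.85, 4.19 and 4.18 with GREM1, 5.65, 3.29 and 4.29 with BMP4, and 3.55, 4.18 and 3.62 in control. Its BMP4 difference of 0.63 ± 0.47 (adjusted p = 0.756) was the highest among the 74 genes and rested on BMP4 replicate 1, without which it was 0.0085. Whether any of these probe sets also reads pseudogene copies was not tested.

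Over all complexes, 8 of the 74 genes had GREM1 arrays that did not overlap the control arrays (24.0% of all genes). Atp5d, Cox5b, Ndufa11, Sdha and Uqcrc1 were above control (11.3% of all genes), and Ndufb5, Ndufb7 and Ndufs6 below it (12.7%). Between BMP4 and GREM1, 5 of the 74 genes did not overlap (24.5% of all genes), Ndufb11 with BMP4 above (12.3%) and Atp5d, Cox5b, Ndufa6 and Uqcrc2 with BMP4 below (12.2%). Cox5b, a subunit that binds zinc, had 5.94, 6.34 and 6.21 with BMP4 against 6.37, 6.62 and 6.38 with GREM1, a difference of -0.29 ± 0.12 (adjusted p = 0.195). The Cox6b2 difference was 0.65 ± 0.28 with BMP4 against GREM1 (adjusted p = 0.244). The median over the 74 genes was 0.028, and 69 intervals lay inside 2-fold (93.6% of all genes).

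Arrays with the same replicate number moved together in these genes more than arrays with the same treatment did. Of the sum of squares of a gene over the 9 arrays, the median share between treatments was 18.6%, the share between replicate numbers 39.4% and the residual 35.4%, while over all genes tested the shares were 33.3%, 26.0% and 31.0%. The replicate number had the larger share than treatment in 51 of the 74 genes (68.9%, against 43.4% of all genes). The genes are not independent of each other, and these shares are given as a description. By complex, the replicate number had the larger share in 21 of 35 genes of complex I, 3 of 4 of complex II, 4 of 7 of complex III, 13 of 15 of complex IV and 10 of 13 of complex V. The median share between replicate numbers was 44.7% in complex II, 51.0% in IV and 46.3% in V. In complexes I (26.5%) and III (25.1%) it was near the 26.0% of all genes, and in complex I the residual was 48.2%.

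**Figure D3:**
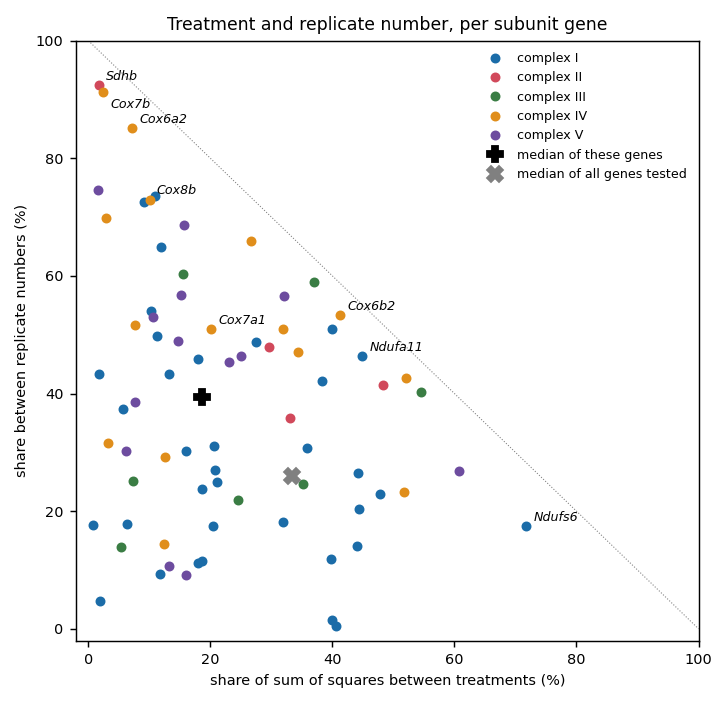
Share of each gene's sum of squares over the 9 arrays that lies between treatments (horizontal, percent) and between replicate numbers (vertical, percent), coloured by complex, with crosses at the medians of the 74 genes and of all genes tested. The median of the 74 genes lies at 18.6% and 39.4%, to the upper left of the median of all genes at 33.3% and 26.0%.

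Replicate 3 was the highest array of all 3 groups for 15 of the 74 genes (20.3%, against 13.7% of all genes) and the lowest for 5 (6.76%, against 10.1%). Among the 35 genes of complex I it was the highest for 1 and the lowest for 1. Sdhb, with 92.5% of its sum of squares between replicate numbers, had 9.69, 9.95 and 10.002 with GREM1, 9.78, 9.99 and 10.002 with BMP4, and 9.70, 9.92 and 10.09 in control. Replicate 1 was the low array of each group. Cox7b, with 91.2%, had 6.80, 6.90 and 7.50 with GREM1, 6.91, 6.93 and 7.68 with BMP4, and 6.81, 7.20 and 7.51 in control, and replicate 3 was the high one. The muscle isoforms ran the other way, with 85.1% between replicate numbers in Cox6a2, 73.0% in Cox8b and 50.9% in Cox7a1. In Cox6b2 the replicate number had 53.4% and treatment 41.3%.

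Of 7 genes of differentiation and of division, looked up after this pattern was seen, 6 had the larger share between treatments and 1, Tnnt3, between replicate numbers. Tnnt3, a fast muscle troponin, had 11.68, 11.73 and 11.59 with GREM1, 11.75, 11.81 and 11.33 with BMP4, and 11.62, 11.78 and 11.29 in control, replicate 3 being the lowest of each group, with 77.1% of its sum of squares between replicate numbers and 5.98% between treatments. Mki67, a marker of dividing cells, had 7.93, 7.82 and 8.14 with GREM1, 8.62, 8.61 and 9.12 with BMP4, and 8.66, 8.61 and 9.08 in control, replicate 3 being the highest of each group, with 19.8% between replicate numbers and 78.9% between treatments. The share between replicate numbers was 25.8% in Top2a, which serves DNA replication, 36.2% in the embryonic myosin Myh3, 27.0% in the myogenic factor Myog and 22.3% in the cardiac actin Actc1, against 73.1%, 47.3%, 56.8% and 31.4% between treatments in the same order. Ckm, the muscle creatine kinase, had 8.09, 8.39 and 8.71 with GREM1, 6.55, 6.78 and 5.93 with BMP4, and 6.80, 6.77 and 6.52 in control, with 1.45% between replicate numbers and 91.7% between treatments. Their part in the levels of the subunit genes was not tested. What the replicate numbers stand for is not given in the sources used here.

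**Figure D4:**
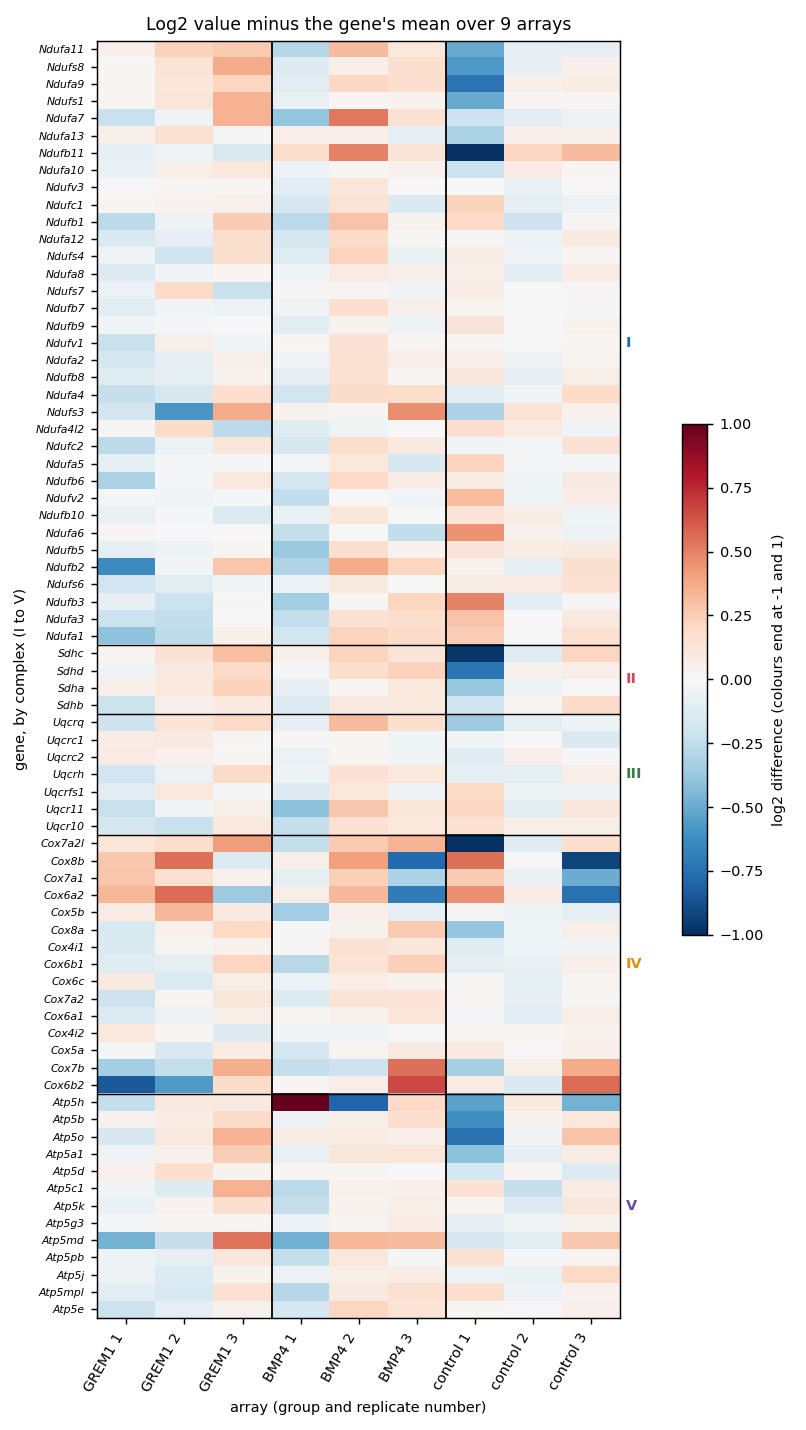
Log2 level of each tested subunit gene in each of the 9 arrays minus the mean of that gene, by complex from I to V, with GREM1, BMP4 and control arrays from left to right and colours ending at a difference of 1 in either direction. Control replicate 1 is low in Sdhc, Sdhd, Cox7a2l and Ndufb11, and the muscle isoforms Cox8b and Cox6a2 are low in replicate 3 of each group.

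Promoter windows (250 bases before to 50 after the RefSeq start, GRCm38.p6) were found for 62 of the 76 genes, 67 windows in all, and were compared with all 32851 windows on both strands. The NRF1 motif was in 22.4% of the members' windows, against 4.6% of all windows, and the ETS motif CCGGAAG, to which GABP binds, in 23.9%, against 8.86%. The YY1 motif AAGATGGC was in 13.4%, against 2.75%, and 7 of the 9 windows that held it belonged to complex I. The motif of estrogen-related receptors AAGGTCA was in 7.46%, against 4.72%, and the GC box GGGCGG in 40.3%, against 35.7%. The E-box CAGCTG was in 7.46%, against 16.3%, and the MEF2 motif in 1.49%, against 3.69%. Motifs were counted separately, also where matches overlap. A match describes the letters of the window and not binding.

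Genes that build or serve the complexes were likewise without calls. Against control, with either protein, 0 of 19 complex I, 0 of 4 complex II, 0 of 6 complex III, 0 of 23 complex IV and 0 of 4 complex V assembly factors passed the test, and between BMP4 and GREM1 the counts were also 0. With GREM1 against control, 4 of 19 complex I and 9 of 23 complex IV assembly factors had an unadjusted p under 0.05, where 20.0% of all genes did. They include Ndufaf2 at -0.44 ± 0.13 (adjusted p = 0.0863, and 0.0346 with the replicate block) and the copper chaperone Sco2 at -0.65 ± 0.19 (adjusted p = 0.0872, and 0.0237 with the block). Cox19, another copper-handling factor, was not among them, at 0.61 ± 0.30 (adjusted p = 0.292, and 0.0495 with the block). Control replicate 1 was the lowest of all arrays for Cox19 (6.32) and the highest for Sco2 (9.17). With arrays left out, the smallest difference was 0.28 for Cox19 and -0.41 for Sco2. Of 4 subunits and carriers outside the symbol rule, 0 passed. The ATP synthase inhibitor Atpif1 had 10.52, 10.55 and 10.86 with GREM1, 10.81, 10.99 and 11.10 with BMP4, and 11.01, 10.86 and 11.12 in control, a GREM1 difference of -0.35 ± 0.12 (adjusted p = 0.140, and 0.0340 with the block). None of 13 genes of mitochondrial DNA expression, 13 of supercomplexes and cristae and 7 of creatine kinase, nucleotide carriers and uncoupling passed in any comparison, with at most 1 of each list at an unadjusted p under 0.05. No mitochondrially encoded subunit was found by name in the table.

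Calls appeared among genes that regulate this machinery and feed it. Of 18 transcriptional regulators of mitochondrial genes, 0 passed against control without the block and 3 were lower with BMP4 than with GREM1 (2.83% of all genes). Ppargc1a, the coactivator PGC-1alpha that drives mitochondrial biogenesis in muscle, had 5.89, 5.87 and 5.87 with BMP4, 6.44, 6.55 and 6.74 with GREM1, and 6.46, 6.43 and 6.46 in control. Every BMP4 array lay below every other array. It was lower with BMP4 than with GREM1, with a difference of -0.70 ± 0.087 (adjusted p = 0.00146), and the BMP4 difference from control was -0.57 ± 0.087 (adjusted p = 0.0504, and 0.0398 with the replicate block). Ppargc1b, its relative PGC-1beta, was also lower with BMP4 than with GREM1 (-0.34 ± 0.085, adjusted p = 0.0476), and so was Hcfc1, a transcriptional cofactor (-0.30 ± 0.071, adjusted p = 0.0384). These last 2 calls were lost under most alternatives. The regulators Esrra, Nrf1 and Gabpa differed by 0.017, -0.10 and -0.076 with GREM1 and by 0.13, -0.0021 and -0.016 with BMP4 against control, and none passed. Pprc1, a coactivator related to Ppargc1a, differed by -0.30 ± 0.10 with GREM1 against control (adjusted p = 0.129, and 0.0404 with the block).

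Of 18 genes of the tricarboxylic acid cycle and of pyruvate entry, 2 passed with GREM1 against control (4.28% of all genes): 1 rose and 1 fell. Pdk4, the kinase that switches off pyruvate dehydrogenase, had 8.15, 8.18 and 7.71 with GREM1, 9.43, 9.61 and 9.75 with BMP4, and 8.82, 8.82 and 8.97 in control. The 3 groups did not overlap. Pdk4 fell by 0.86 ± 0.14 with GREM1 against control (adjusted p = 0.0112), and its BMP4 difference from control was 0.73 ± 0.14 (adjusted p = 0.114). Between BMP4 and GREM1 it was 1.59 ± 0.14 higher with BMP4 (adjusted p = 1.82e-04). Pdha1, a catalytic subunit of pyruvate dehydrogenase, had 9.20, 9.30 and 9.28 with GREM1, 9.08, 9.13 and 9.08 with BMP4, and 8.68, 8.98 and 8.89 in control. It rose by 0.41 ± 0.091 with GREM1 (adjusted p = 0.0371), and without control replicate 1 the difference was 0.33 (adjusted p = 0.0769). Pdk2, another kinase of pyruvate dehydrogenase, had 8.53, 8.37 and 7.70 with GREM1 against 7.98, 7.70 and 7.25 in control. The groups overlapped, while within each replicate number the GREM1 array was the higher one, and the difference was 0.56 ± 0.24 (adjusted p = 0.233, and 0.0107 with the block).

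Of 15 genes of mitochondrial fatty acid oxidation, 0 passed against control without the block and 1 was higher with BMP4 than with GREM1 (3.62% of all genes). That gene was Cpt1a, which carries out the entry step for long-chain fatty acids. It had 8.04, 7.99 and 8.44 with BMP4, 7.41, 7.40 and 7.71 with GREM1, and 7.80, 7.92 and 8.12 in control. Every BMP4 array lay above every GREM1 array, and the difference was 0.65 ± 0.14 (adjusted p = 0.0295). Against control its GREM1 difference was -0.44 ± 0.14 (adjusted p = 0.127, and 0.0111 with the block). The fatty acid oxidation enzyme Hadha differed by 0.38 ± 0.093 with GREM1 (adjusted p = 0.0528, and 0.0280 with the block).

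**Figure D5:**
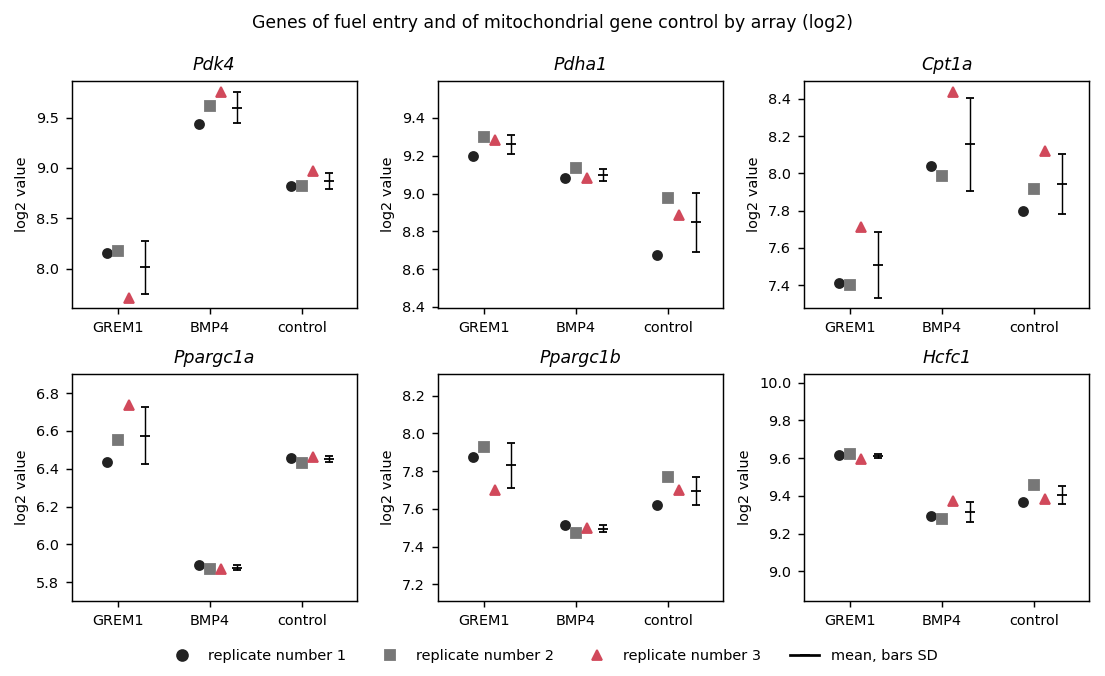
Log2 level in each array of Pdk4, Pdha1, Cpt1a, Ppargc1a, Ppargc1b and Hcfc1 in GREM1, BMP4 and control arrays, with the marker giving the replicate number and bars the mean and SD of 3 arrays. Each panel has its own level axis. The 3 groups of Pdk4 do not overlap, and the BMP4 arrays of Ppargc1a lie at 5.87 to 5.89, below all others.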

How the data were processed

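Mouse primary myoblasts were measured on 9 arrays (GREM1, BMP4 and control, 3 each). The submitters' processing notes name RMA and Affymetrix Expression Console, and the deposited values are on the log2 scale. RMA corrects background, normalizes between arrays and summarises probes. The model of the array, its chip definition and a genome build were not given in the sources used here. Values were used as deposited, and array medians ran between 5.00 and 5.12. Of 24973 probe sets, 24015 had 1 gene symbol in GEO's platform annotation and 958 had none and were left out. Of several probe sets of a gene, the one with the highest mean was taken. Groups were taken from the labels.

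Differences were tested with lmFit and eBayes of limma 3.58.1 (R 4.3.3) over the 17142 genes that met the filter, in 1 fit of all 9 arrays, two-sided, with Benjamini-Hochberg adjustment over all of them and a threshold of 0.05. The fit was tested on simulated data. The number of arrays limits the precision. With group means removed, arrays that share a replicate number had correlations of 0.242, 0.118 and 0.473 for GREM1 with control and 0.341, 0.170 and 0.580 for BMP4 with control, and the numbers were taken as pairs there. Values with the number as a block are given where they change a call against control, and in the last section for BMP4 against GREM1. They are also given for the muscle isoforms and for the genes whose GREM1 interval reached past 2-fold.

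Alternatives were the block, only the groups compared, an intensity trend, weights per array, centring each array on its median, a repeated quantile normalization, a filter at the 50th percentile or none, averaged probe sets, and each array left out. Leaving out all arrays of a replicate number was added after seeing the data. Subunit genes with values are the isoform families, those past the threshold in a fit, and the 3 with the smallest p of each complex in a comparison; of other genes, those with the smallest p of each list and fixed regulators. Ndufb5, Ndufb7, Tnnt3 and Mki67 were added later, with their values in view. Uqcrfs1 and Gabpa have values outside these rules, and some genes that meet them, such as Tfam, Cyc1 and Cycs, have none. The members, the gene lists and the rules were chosen with earlier results of these data known. Isoform pairs were compared by exact permutation tests.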

Additional observations from a re-analysis of the deposited data

How the results depend on the processing

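With the replicate number as a block over all 9 arrays, 3 of the 74 genes passed with GREM1 against control. With BMP4 against GREM1, 1 passed (Cox6b2, adjusted p = 0.00628). The numbers were not taken as pairs for BMP4 against GREM1, although the correlations there (0.223, 0.0885 and 0.423) were only slightly below those of GREM1 with control. Of the other listed genes, Pdk2 (adjusted p = 0.00285), Echs1 (0.0230), Atpif1 (0.0433) and Cox10 (0.0443) passed there with the block and not in the main fit. Of the 9 arrays, 8 correlated best with an array of their own number. Leaving out arrays gave 0 calls with either protein against control and 0 to 1 for BMP4 against GREM1, the 1 being Cox6b2 without replicate number 3 (adjusted p = 0.0296). Every other alternative run gave 0. Medians over the members ranged from -0.071 to 0.035 with GREM1, -0.048 to 0.091 with BMP4 and -0.034 to 0.11 for BMP4 against GREM1, so their signs are not settled. Counts over all genes ran from 4 to 1985, 0 to 68 and 167 to 2192 in the same order of comparisons; the block gave 1985, 65 and 2192, only the groups compared 459 and 5 against control, and array weights 68 for BMP4 against control and 1768 for BMP4 against GREM1. The isoform pairs could not reach the threshold with so few arrays, so their alternatives say nothing about stability. Pdk4 passed for BMP4 against GREM1 in 21 of 21 alternatives and for GREM1 against control in 19, being lost without replicate number 1 (adjusted p = 0.137) or 2 (0.156). Ppargc1a passed for BMP4 against GREM1 in 20 of 21, being lost without number 2 (0.0959), Cpt1a in 14, Ppargc1b in 8 and Hcfc1 in 7, and Pdha1 passed for GREM1 in 9. The causes were not tested. With 3 arrays per group, a gene without a call was not shown to be unchanged. The intervals give the differences left possible by the fit without the block and are no limit of detection.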
